A study of Mus musculus with 1047 samples.

Results

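The nuclear genes of the mitochondrial respiratory chain were followed in microglia of aged mouse brain, in mice labelled Trem2ko and in an amyloid model. Members were all gene rows whose symbol begins with Nduf, Uqcr, Sdh or Atp5, or with Cox followed by a digit from 4 to 8. This gave 103 of 18081 symbols in the aged Smart-seq2 table, 101 of 16012 in the 5xFAD Smart-seq2 table and 95 of 20765 in the 10x table, and 110 distinct symbols over all of them. The aged table is made of column blocks with different gene naming, and 2 members were rejoined from an old and a new Atp5 symbol. Of the 103 members, 98 had reads in both blocks; Cox7a1, Ndufs5-ps, Ndufa11b, Uqcrh-ps1 and Atp5l-ps1 did not and were left out of the comparisons.

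Smart-seq2 reads the mRNA of 1 sorted cell per well along its whole length, without molecular identifiers. The aged set held cells of WT mice of the C57BL/6J strain and of mice labelled Trem2ko, a knockout label for Trem2, a lipid-sensing receptor of microglia. WT animals A2 to A7 were male and A1, which gave grey matter only, was female, all aged 18 to 19 months. Of the Trem2ko animals, A8 (male) and A9 and A10 (female) were 20 months old, and A11 (female) and A12 (male) were 18 months old. Grey matter was frontal cortex, and white matter was a joint dissection of the optic tract, the medial lemniscus and the corpus callosum. The 5xFAD set held prefrontal cortex cells of females: A91, A93, A99 and A100 of the 5xFAD line at 7 months, and WT animals A132 at 7 months and A173 at 6 months. The 5xFAD line carries mutant human transgenes driven in neurons by the Thy1 promoter, and deposits amyloid. Tissue was dissociated with actinomycin D, a blocker of transcription, and a sort kept live single cells that carried both CD45 and CD11b; the same protocol is given for WT and mutant animals. The 10x table pooled brain cells of C57BL/6J males aged 24 months from 5 libraries titled wild type, with no sort named, and its columns could not be tied to single samples. Of these, 1 from white matter, is tagged ApoeKO against its title, so the genotype of part of the 10x cells is uncertain.

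Counts of all cells of an animal were added up for each tissue, so that animals were the replicates. The 29 summed libraries held 7 to 99 cells and 570371 to 59659665 reads; A13 (Trem2ko) and A187 (5xFAD) had too few cells and were left out. The median cell had 77892 reads in WT grey, 89523 in WT white, 256055 in Trem2ko grey and 284697 in Trem2ko white matter. The 10 microglial markers took 4.48% to 7.28% of reads in every library, and oligodendrocyte markers at most 0.0369%. Trem2 lay between 1783 and 5844 CPM (the usual scaling of a gene's reads to a fixed library total) in aged WT animals and between 268 and 741 CPM in 4 of 5 Trem2ko animals. The library labelled Trem2ko A12 had 1420 and 2056 CPM, which overlaps the lowest WT values. In summed samples, fewer cells of a type and less RNA per cell cannot be told apart.

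The respiratory chain sits in the inner mitochondrial membrane. Complexes I and II feed electrons from NADH and succinate to ubiquinone, complex III passes them to cytochrome c, complex IV hands them to oxygen, and ATP synthase uses the resulting proton gradient to make ATP. Most subunits are nuclear genes whose proteins are imported, and a small set is encoded by mitochondrial DNA. Several complex IV subunits exist as a common form and as a tissue form, such as Cox6a1 and Cox6a2 (the form known from heart and skeletal muscle), Cox4i1 and Cox4i2, or Cox8a and Cox8b.

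NRF1 and GABPA are transcription factors known to act on many of these genes, so the promoters were read for their core letters. The windows came from RefSeq (GRCm38.p6) and ran from 250 bases before to 50 bases after the gene start. Of 92 members with a named role, 78 had an entry. The palindromic NRF1 core, the 10 capitals of the first sequence shown, occurred in 7 of these (8.97%) and in 264 of 27025 promoters of all genes (0.977%). The GABPA letters CCGGAAGT, searched on both strands, occurred in 5 (6.41%) and in 1081 of all promoters (4.0%). No member held both, and 12 (15.4%) held either, against 4.89% of all promoters. Matches of the motifs did not overlap each other in members, and a match is a description of letters only. The windows shown belong to genes to which the results below return, each read 5′ to 3′ in the direction of the gene with the match in capitals.
Atp5g2, chr15:102671070-102671099, minus strand: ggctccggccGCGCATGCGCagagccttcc
Cox6a1, chr5:115349101-115349130, minus strand: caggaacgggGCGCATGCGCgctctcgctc
Ndufa11, chr17:56717692-56717721, plus strand: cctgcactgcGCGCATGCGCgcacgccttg
Uqcr11, chr10:80406869-80406898, minus strand: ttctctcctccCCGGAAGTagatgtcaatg
Uqcrh, chr4:116075063-116075092, minus strand: gagtatgccgcACTTCCGGccaggtcgccg
Cox8a, chr19:7217604-7217633, minus strand: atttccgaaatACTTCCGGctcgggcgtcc
The matches begin 42 bases before the gene start in Atp5g2, 162 in Cox6a1, 60 in Ndufa11, 66 in Uqcr11, 11 in Uqcrh and 6 in Cox8a. In Uqcrh and Cox8a the match lies on the other strand and is printed as its reverse complement. The match of Cox8a reaches across the start, and another one lies after it.

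Levels of different genes were set side by side per kilobase of merged exon (GENCODE vM21, GRCm38), as CPM per kb averaged over aged libraries. The highest belonged to complex IV: Cox8a at 393, Cox6b1 at 314 and Cox4i1 (its main regulatory subunit) at 278 CPM per kb. The complex I accessory subunit Ndufa2 had 271 and the small complex III subunit Uqcr11 had 185 CPM per kb. In ATP synthase, the catalytic head subunits Atp5a1 and Atp5b had 157 and 124 CPM per kb. Levels of the succinate dehydrogenase subunits ran from 26.4 (Sdhc) to 99.6 CPM per kb (Sdhb). Assembly factors, which build the complexes without staying in them, ran from 1.04 (Ndufaf5) to 52.4 CPM per kb (Ndufaf8), which overlaps the subunits.

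The members varied among animals less than a typical gene of like level range. Among members of at least 20 CPM, the median coefficient of variation was 48.4% in WT white matter (78 members), against 72.7% over all 5314 genes of that level. It was 56.7% against 84.8% in WT grey matter and 35.1% against 52.3% in Trem2ko grey matter. Atp5a1 was the steadiest member in WT white matter at 11.9%, and Ndufaf3, a complex I assembly factor, the most variable at 118%. Of the 98 members, 66 had reads in all 23 aged libraries. These spreads are descriptions, and gene level within the range was not matched.

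Atp5l and Uqcrb, subunits of ATP synthase and complex III with many copies in the genome, had values in Smart-seq2 far below those in 10x. Uqcrb had 0 to 7.38 CPM per library in the aged tissues, although 10x microglia held 154 UMI CPM (the same scaling of UMIs, unique mRNA tags). The Smart-seq2 values of these genes are uncertain, since no source used here says how reads shared with such copies were counted. The chain genes of mitochondrial DNA took 0.0216% to 0.0938% of reads in the aged table, where 8 of them were used, and 0.0115% to 0.0627% in the 5xFAD table, with 11. All 13 took 3.20% of 10x microglial UMIs, so these values cover unlike sets of genes.

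The members together took 0.979% to 1.18% of gene reads in WT grey matter, with 1.100% in A1, 0.994% in A2, 1.176% in A3, 1.121% in A4, 0.979% in A5, 1.016% in A6 and 1.070% in A7. In WT white matter, A2 to A7 had 0.994%, 0.907%, 1.126%, 0.955%, 0.956% and 1.100%. WT tissues overlapped, with 1.07% ± 0.0727 (SD, n = 7) in grey and 1.01% ± 0.0874 (SD, n = 6) in white matter. In Trem2ko grey matter, A8 to A12 had 0.799%, 0.909%, 0.993%, 0.862% and 0.892%. In Trem2ko white matter the same animals had 0.912%, 1.036%, 0.978%, 0.878% and 0.888%. All but 1 of the Trem2ko grey matter libraries lay below every WT grey matter library, the exception being A10.

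**Figure D1:**
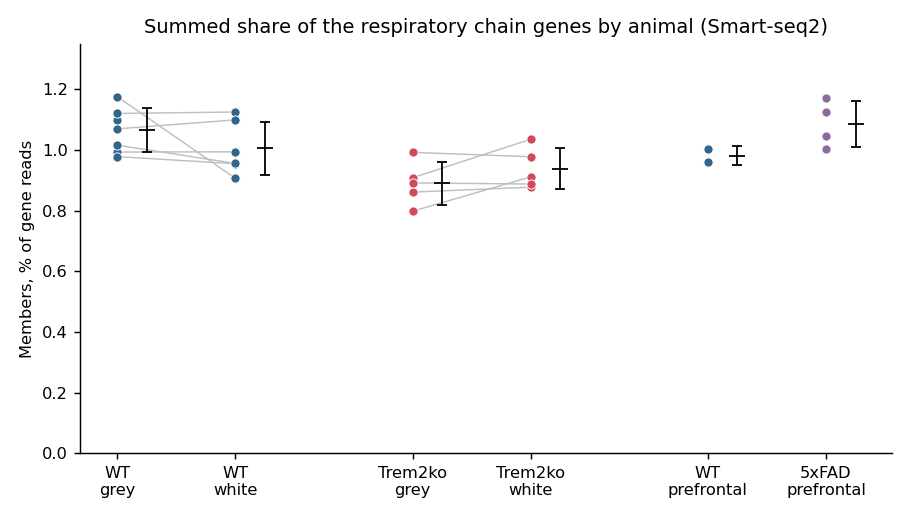
Percent of gene reads taken by all respiratory chain members (y axis, from 0) in each summed Smart-seq2 library, by genotype and tissue. Points are animals, grey lines join the tissues of 1 animal, and black bars give the mean and SD; Trem2ko grey matter (0.891% ± 0.0708, n = 5) has the lowest mean and 5xFAD (1.09% ± 0.0758, n = 4) the highest.

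Whether white and grey matter microglia differ in these genes was asked within animals. The most marked member was Cox6a2, the muscle-type form of a small complex IV subunit. In WT white matter it had 64.4, 111, 109, 74.7, 0 and 20.8 CPM in A2 to A7, and in grey matter of the same animals 0, 28.2, 0, 2.45, 0 and 22.6 CPM. White was above grey in 4 of 6 animals, by far in A2 to A5, while A6 had no read in either tissue and A7 was slightly lower in white. In Trem2ko white matter Cox6a2 had 13.9, 63.8, 37.4, 12.3 and 35.9 CPM in A8 to A12, against 1.39, 0.832, 0.305, 0.190 and 14.4 CPM in grey matter. White was above grey in 5 of 5 Trem2ko animals, and the groups overlapped only through the grey matter of A12.

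The log2 fold change of Cox6a2 from grey to white was 4.71 (SE 1.90) in WT and 4.85 (SE 1.67) in Trem2ko animals. Neither passed edgeR's quasi-likelihood test with Benjamini-Hochberg adjustment over 11437 genes (adjusted p = 0.898 and 1.0). Both passed with DESeq2 as the other tool, with log2 changes of 3.86 (adjusted p = 0.0201) and 4.88 (adjusted p = 0.00804). The tissue effects of the genotypes differed by 0.15 on the log2 scale (SE 2.38; edgeR adjusted p = 1.0), an interval too wide to call them alike. Reads came from a minority of cells: 0% to 35.3% of the cells of a WT animal held a Cox6a2 read in white matter and 0% to 10.5% in grey matter, at similar median depths. In Trem2ko animals A8 to A12 it was 14.7% to 28.3% in white and 3.57% to 33.7% in grey matter. A12 had more such cells in grey (33.7%) than in white matter (28.3%).

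Set against its common partner, Cox6a2 gave 25.1%, 34.0%, 28.1%, 23.8%, 0% and 7.09% of the Cox6a1 and Cox6a2 reads in WT white matter of A2 to A7. In Trem2ko white matter the share was 7.15%, 21.7%, 18.0%, 6.93% and 17.9% in A8 to A12. In grey matter it stayed at or below 16.3% in WT and at or below 10.2% in Trem2ko animals. Cox6a1 itself had a log2 change of -0.08 (SE 0.47; edgeR adjusted p = 1.0) in WT, too uncertain to call the tissues alike. It was higher in white matter in 4 of 6 WT and 4 of 5 Trem2ko animals. A6, with no Cox6a2 read, had 7 cells in grey and 14 in white matter.

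**Figure D2:**
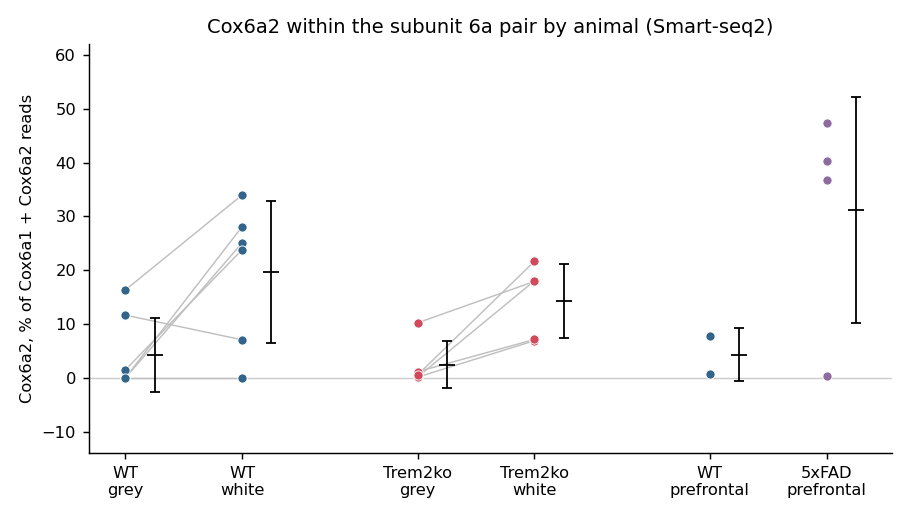
Cox6a2 as a percent of Cox6a1 plus Cox6a2 reads (y axis) in each summed Smart-seq2 library. Points are animals, grey lines join the tissues of 1 animal, and bars give the mean and SD; 5 of 5 Trem2ko pairs and 4 of 6 WT pairs go up from grey to white matter, and 3 of 4 5xFAD animals lie above 36%.

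Over all members, edgeR called 0 of 91 between WT tissues, against 0.035% of all genes, with 7 members at an unadjusted p under 0.05 (4 higher and 3 lower in white) against 5.25% of all genes. Log2 changes were positive in 50 of 91 (54.3% of all genes). DESeq2 called 2 of the 91 members, Cox6a2 among them. Over all 9441 genes with an adjusted p it called 210 higher and 151 lower in white matter. Between Trem2ko tissues edgeR called 0 of 91 (0.0% of all genes), with 2 at an unadjusted p under 0.05 (2.82% of all genes). DESeq2 called Cox6a2 alone among the members, and 68 genes higher and 53 lower of 10328 in all. For the difference of the tissue effects edgeR called 0 of 91 (0.0% of all genes), with 2 at an unadjusted p under 0.05 (2.54% of all genes). There DESeq2 called 0 members, and 23 positive and 29 negative differences among 10771 genes in all. Log2 changes were positive in 58 of 91 in Trem2ko animals (50.0% of all genes), and the difference was positive in 44 of 91 (46.6% of all genes). The members' median log2 change was 0.03 in WT, beside 0.11 over all genes, and 0.10 in Trem2ko, beside 0.00.

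By complex, log2 changes were positive in 6 of 8 complex III subunits in both genotypes and in 11 of 17 ATP synthase members in both. They were positive in 8 of 14 complex IV members in WT and 9 of 14 in Trem2ko animals, and in 22 of 44 and 29 of 44 complex I members. The complex IV share in WT (57.1%) was near the 54.3% of all genes. Cox8a and Cox4i1 were higher in white matter in 5 of 6 WT animals, by 0.74 (SE 0.32) and 0.50 (SE 0.23), and in 2 of 5 Trem2ko animals; edgeR called neither (adjusted p = 0.912 and 0.924 in WT). The summed share differed from grey to white by -0.08 on the log2 scale (SD 0.153, n = 6) in WT and by 0.08 (SD 0.105, n = 5) in Trem2ko animals, both within the spread between animals. Part of the Trem2ko cells of A8 to A10 were on plates of a single tissue; with only the plates that held both tissues, the Trem2ko difference was 0.22.

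Genotypes were compared within each tissue. In white matter, 63 of 88 tested members had lower values in Trem2ko animals (45.7% of all genes did), and the members' median log2 change was -0.24 beside 0.08 over all genes. The lower side took in 13 of 13 complex IV members, 7 of 8 complex III subunits and 13 of 17 ATP synthase members. Complex I was mixed, with 26 of 42 lower, and 6 of its 7 tested assembly factors were higher. No member passed edgeR's test (0 of 88, with 0.0% of all genes called), and 3 had an unadjusted p under 0.05, all lower, against 3.34% of all genes. DESeq2 called 0 members, and 2 genes higher and 29 lower in all, but gave an adjusted p for only 585 genes. Some members, Uqcr11 among them, had none, and the smallest DESeq2 adjusted p of a member was 0.0548 (Cox8a).

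Cox8a had the smallest p. It had 238, 388, 433, 427, 206 and 399 CPM in WT white matter of A2 to A7 and 132, 291, 255, 126 and 125 CPM in Trem2ko white matter of A8 to A12. Most Trem2ko values lay low, but A9 and A10 exceeded WT A2 and A6, so the groups overlapped. The log2 change was -0.91 (SE 0.34; edgeR adjusted p = 0.999).

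Uqcrh, the hinge subunit of complex III, was the only member whose groups did not overlap in white matter (1 of 88, against 0.19% of all genes lying wholly below, and 0 wholly above, against 0.486%). It had 132, 145, 178, 119, 142 and 133 CPM in WT and 119, 102, 80.2, 92.1 and 83.8 CPM in Trem2ko animals. WT A5 and Trem2ko A8 were nearly level, at 119.4 and 118.8 CPM. Its log2 change was -0.57 (SE 0.35; edgeR adjusted p = 0.999). Atp5d, the delta subunit of the ATP synthase stalk, had a log2 change of -0.76 (SE 0.30; edgeR adjusted p = 0.999).

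In grey matter, 62 of 86 members had lower values in Trem2ko animals (45.6% of all genes did), with a median log2 change of -0.32 beside 0.08 over all genes. These were 10 of 12 complex IV members, 14 of 17 ATP synthase members, 6 of 7 complex III subunits and 27 of 42 complex I members. edgeR called 0 of 86 members, against 0.012% of all genes, with 1 at an unadjusted p under 0.05 (2.6% of all genes). DESeq2 called 0 members, and 8 genes higher and 13 lower of 8337 in all. No member's groups lay apart in either direction (0.132% of all genes lay wholly below and 0.503% wholly above).

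Sdha, the flavoprotein of succinate dehydrogenase, was the member with an unadjusted p under 0.05. It had 701, 111, 285, 67.3, 312, 383 and 396 CPM in WT grey matter of A1 to A7 and 121, 138, 171, 160 and 145 CPM in Trem2ko grey matter. Trem2ko values lay close together, and WT values lay on both sides of them. The log2 change was -1.13 (SE 0.48; edgeR adjusted p = 1.0). Cox4i1 was level, at 224 to 547 CPM in WT and 396 to 439 CPM in Trem2ko animals, with a log2 change of 0.06 (SE 0.27; edgeR adjusted p = 1.0). Cox6a2 was too low in grey matter to pass the filter.

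The summed share was lower in Trem2ko animals by 0.10 on the log2 scale in white matter and by 0.26 in grey matter. The grey matter difference was larger than 0.114, the larger of the SDs of log2 shares within a group, and the share as such was not tested. In the aged set every WT animal was on other plates than every Trem2ko animal, so genotype and plate cannot be told apart. Sex differed too, since WT A2 to A7 were male and Trem2ko A9, A10 and A11 were female. The median cell of A8 to A10 had 75424 to 128009 reads per library, within the WT range of 58019 to 128757. A11 and A12 lie in the other column block at a higher read depth, so over all animals depth is mixed with genotype as well. Relative to all genes, the members' median was -0.32 in white and -0.41 in grey matter; without A11 and A12 it was -0.17 and -0.31. Without them the share difference in white matter was -0.04. Cytosolic ribosomal genes moved with the members: 81 of 85 had lower values in Trem2ko white matter and 83 of 84 in grey matter, with median log2 changes of -0.67 and -0.66. Their part in the result was not tested.

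Other mitochondrial groups were set beside the chain in the same comparisons, and none had a member that passed edgeR's test in them. Genes of the mitochondrial ribosome, which translates the mitochondrial mRNAs, had lower values in Trem2ko animals in 36 of 76 cases in white and 32 of 74 in grey matter. Citrate cycle enzymes had lower values in 6 of 17 and 7 of 17. The tested chain genes of mitochondrial DNA were lower in 5 of 5 in white and 4 of 5 in grey matter, at the low levels given above.

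**Figure D3:**
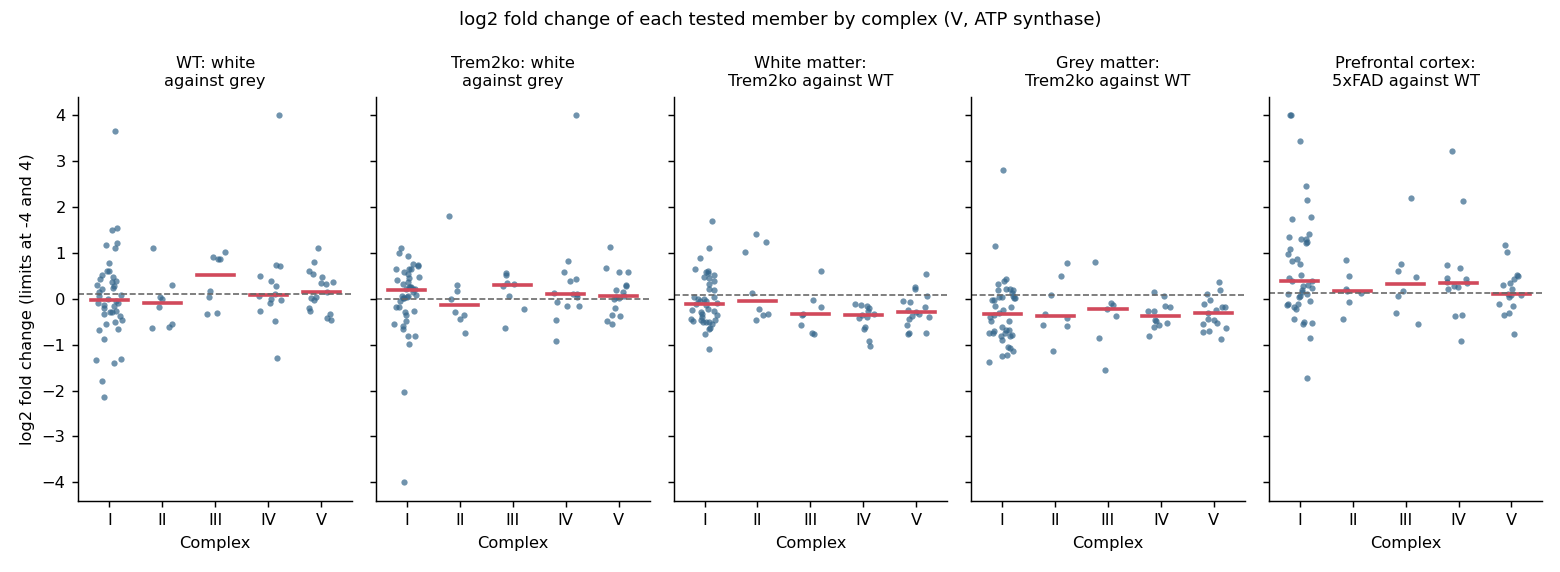
log2 fold change (y axis, points beyond 4 or -4 drawn at the limit) of each tested member by complex (x axis; V is ATP synthase) in 5 comparisons. Points are genes, red bars are medians of a complex and the dashed line is the median of all tested genes; complex IV lies below that line for 13 of 13 members between genotypes in white matter, and no point passed edgeR's test.

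The prefrontal cortex of 5xFAD mice was compared with that of WT mice, with 4 animals against 2. Here 65 of 89 members had higher values in 5xFAD animals (54.2% of all genes did), with a median log2 change of 0.28 beside 0.13 over all genes. The higher side held 31 of 43 complex I members, 11 of 14 of complex IV, 6 of 8 of complex III and 12 of 17 of ATP synthase. edgeR called 0 of 89 (0.0% of all genes), with 3 at an unadjusted p under 0.05, all higher, against 3.26% of all genes. DESeq2 called 2 members, and 163 genes higher and 49 lower of 8465 in all. Without WT animal A173 the members' median was 0.31, with 60 of 91 positive, and that of all genes was 0.81, so the members then lay below all genes by 0.50.

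Ndufaf3, an assembly factor of the matrix arm of complex I, had 7.69 and 1.83 CPM in WT A132 and A173 and 88.8, 63.4, 150 and 137 CPM in 5xFAD A91, A93, A99 and A100. All 5xFAD animals lay high and the groups did not overlap. Its log2 change was 4.54 (SE 1.30; edgeR adjusted p = 1.0), and DESeq2 called it at 4.56 (adjusted p = 0.000218). Uqcr11 had 67.5 and 38.0 CPM in WT and 330, 226, 121 and 289 CPM in 5xFAD animals, again without overlap. Its log2 change was 2.19 (SE 0.71; edgeR adjusted p = 1.0), called by DESeq2 at 2.26 (adjusted p = 0.0203).

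In all, 10 of 89 members lay wholly higher in the 4 5xFAD animals, against 4.25% of all genes: Atp5g3, Atp5j, Ndufa11, Ndufa3, Ndufaf1, Ndufaf3, Ndufb11, Ndufc2, Ndufv3 and Uqcr11. Ndufb7, an accessory subunit at the intermembrane face of complex I, was the 1 member wholly lower (6.71% of all genes), with 332 and 162 CPM in WT and 3.73, 57.7, 133 and 103 CPM in 5xFAD animals. Ndufc2, an accessory subunit of the membrane arm, had 100.2 and 146 CPM in WT and 329, 252, 293 and 288 CPM in 5xFAD animals. Its log2 change was 1.24 (SE 0.53; edgeR adjusted p = 1.0).

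Cox6a2 varied widely in this region, at 52.4 and 1.99 CPM in WT and 1.24, 78.8, 284 and 107 CPM in 5xFAD animals. A91, with 7 cells, lay at the level of the lower WT animal, and the other 5xFAD animals were above both. The log2 change was 2.12 (SE 1.72; edgeR adjusted p = 1.0). Cox6a2 took 0.420%, 36.7%, 47.2% and 40.2% of the pair in 5xFAD A91, A93, A99 and A100, and 7.85% and 0.831% in WT A132 and A173.

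The summed share was 1.0033% and 0.960% in WT A132 and A173 and 1.0030%, 1.170%, 1.047% and 1.127% in 5xFAD A91, A93, A99 and A100. The groups overlapped, since A91 lay just below A132. The log2 difference was 0.14, beside 0.101 as the larger of the SDs of log2 shares within a group. The plates that held both genotypes carried A91 with A132 and A99 with A173, and on those the difference was 0.05.

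The pooled 10x table extended the description to single-cell states. Its 21197 cells formed 29 clusters when the members and other mitochondrial genes were left out of the clustering. In 8 clusters, with 11038 cells and a median of 7555 UMIs, all 10 microglial markers were detected, and these are called microglia-like. The table is 1 sample, so no test was made, and the exact Poisson or binomial intervals given cover counting error only. A doublet caller marked 135 cells (0.64%), 6 of them microglia-like, and 41 barcodes occurred under more than 1 of the 5 barcode endings.

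Members took 1.36% of UMIs in microglia-like cells, a low share among brain cells. It was 0.983% in neutrophil-like, 1.29% in B cell-like, 1.52% in border-associated macrophage-like, 1.72% in endothelial cell-like, 1.83% in monocyte-like, 2.18% in astrocyte-like and 2.47% in neuron-like cells. Choroid plexus cell-like cells, which secrete the cerebrospinal fluid, stood highest at 8.76%. Within microglia, the share was 1.23% in cluster 1 (4341 cells, led by P2ry12), 1.48% in cluster 18 (2014 cells, led by Apoe and Cst7) and 1.60% in cluster 19 (833 cells, led by Spp1). Cluster 5, led by the division genes Mki67 and Top2a, had 1.96% in 104 cells.

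Cluster 19 was deeper, with a median of 11937 UMIs against 7039 in cluster 1. After thinning every cell to 2000 UMIs, the shares were 1.58% in cluster 19, 1.46% in cluster 18 and 1.22% in cluster 1, with 31, 40 and 165 shallower cells left out. Within single barcode endings the order was kept in both endings that held enough cluster 19 cells. Ending 1_2_1 had 1.63% in cluster 19 and 1.19% in cluster 1, and ending 1_2_2 had 1.59% and 1.13%.

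The difference between clusters 19 and 1 was uneven across roles. Of 93 members compared, 55 (59.1%) had an interval wholly above that of cluster 1, against 13.4% of all genes, and 16 lay wholly below, against 54.6%. The median ratio was 1.20 for members and 0.71 for all genes. Complex IV had 11 of 11 subunits above, at a median ratio of 1.47, and the membrane sector of ATP synthase, which holds the proton-carrying c-ring, had 6 of 6 at 1.46. Its F1 head and stalk had 7 of 9 above and complex III 6 of 8.

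Cox8a had 452 UMI CPM in cluster 1 and 772 in cluster 19, a ratio of 1.71, and Cox4i1 had 550 and 893. Ndufa1, an accessory subunit needed to assemble complex I, had 81.7 and 166 UMI CPM, a ratio of 2.03. Uqcrh had 331 and 524 UMI CPM.

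In the catalytic core of complex I, 0 of 7 subunits lay above and 2 below, at a median ratio of 0.94, beside 13.4% of all genes above and 54.6% below. Of its accessory subunits, 20 of 29 were above, at 1.20. Ndufs1, the large iron-sulfur core subunit, had 40.3 UMI CPM in cluster 1 and 26.6 in cluster 19. Of the assembly factors, 4 of 4 for complex II and 4 of 8 for complex I lay below, the latter near the share of all genes; Ndufaf7, a methyltransferase, had 38.1 and 19.4. Ndufaf8 lay above, at a ratio of 1.15. Sdha had 130 and 102 UMI CPM, while Sdhb, the iron-sulfur subunit of complex II, had 98.0 and 128.

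The same contrast within ending 1_2_1 put 49 of 89 members above (8.69% of all genes) and 3 below (37.2%), and within ending 1_2_2 put 39 of 89 above (6.86%) and 1 below (26.5%). Complex IV had 11 of 11 and 10 of 11 above, and complex I core subunits 0 of 7 in both.

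**Figure D4:**
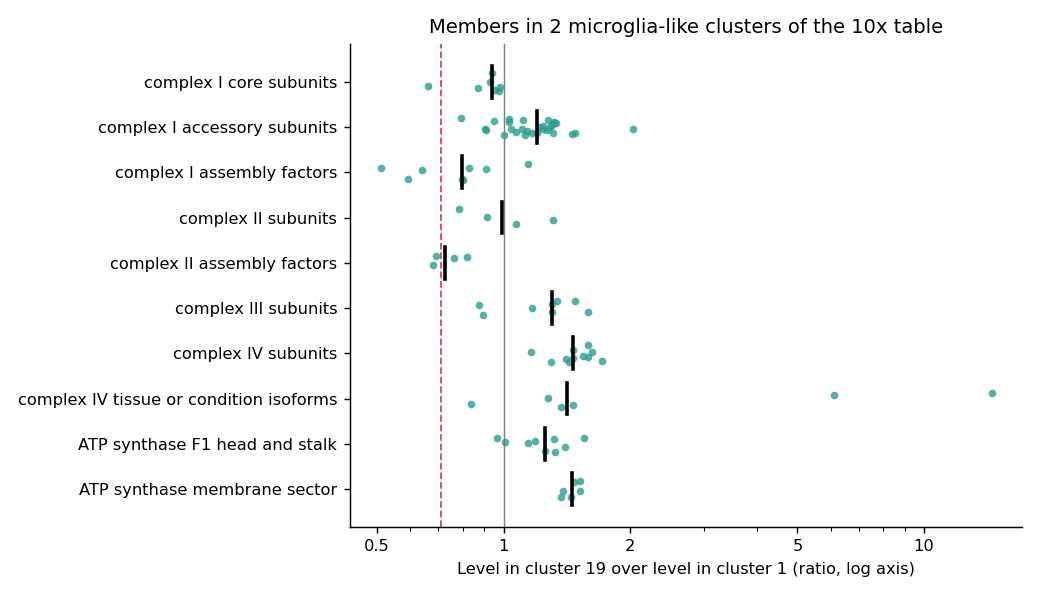
Ratio of the level in microglia-like cluster 19 (led by Spp1) to that in cluster 1 (led by P2ry12) on a log axis, for members by role in the pooled 10x table. Points are genes, black bars are role medians and the dashed red line is the median of all genes (0.71); Cox6a2, at 14.5, lies farthest to the right, and complex I core and complex II assembly factors lie at or below 1.

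Cox6a2 spanned the widest range among the members. It had 8.94 UMI CPM (95% interval 7.90 to 10.1) in cluster 1, 10.3 in cluster 2, 14.5 in cluster 3, 32.0 in cluster 4, 54.7 in the dividing cluster 5, 76.7 in cluster 15 (led by interferon-induced genes), 79.3 in cluster 18 and 130 (123 to 137) in cluster 19. Intervals of some clusters overlapped, such as those of clusters 1 and 2 or of clusters 15 and 18, so not every step of this order is resolved. That of cluster 19 lay above all others. As a part of the Cox6a pair it went from 5.40% in cluster 1 to 29.3% in cluster 15, 27.3% in cluster 18 and 36.1% in cluster 19.

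In classes outside microglia Cox6a2 lay between 0.46 UMI CPM in pericyte-like and 11.6 in neuron-like cells, so clusters 1 and 2 lay within the range of these classes. Border-associated macrophage-like and monocyte-like cells, the nearest relatives of microglia, had 2.52 and 2.63 UMI CPM. Within cluster 1, 4 of the 5 endings had 4.98 to 9.67 UMI CPM and ending 1_1_2 had 15.5. Within cluster 19, endings 1_2_1 and 1_2_2 had 119 and 140, so the gap between these clusters was present inside 1 ending.

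Other tissue forms were a small part of their pairs in microglia-like cells and a larger one in other brain cells. Cox4i2, the form known for a role in oxygen sensing, gave 0.0997% of the Cox4i1 and Cox4i2 UMIs in microglia-like and 40.3% in pericyte-like cells. Ndufa4l2, a hypoxia-induced relative of the complex IV subunit Ndufa4, gave 0.113% and 66.2%. Cox8b gave 0.179% in microglia-like and 24.7% in choroid plexus cell-like cells. Cox7a1, another muscle form, gave 0.459% and 7.29% in the same cells. Cox6a2 was thus the 1 form of these 5 above 1% of its pair in microglia-like cells, at 19.5%.

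**Figure D5:**
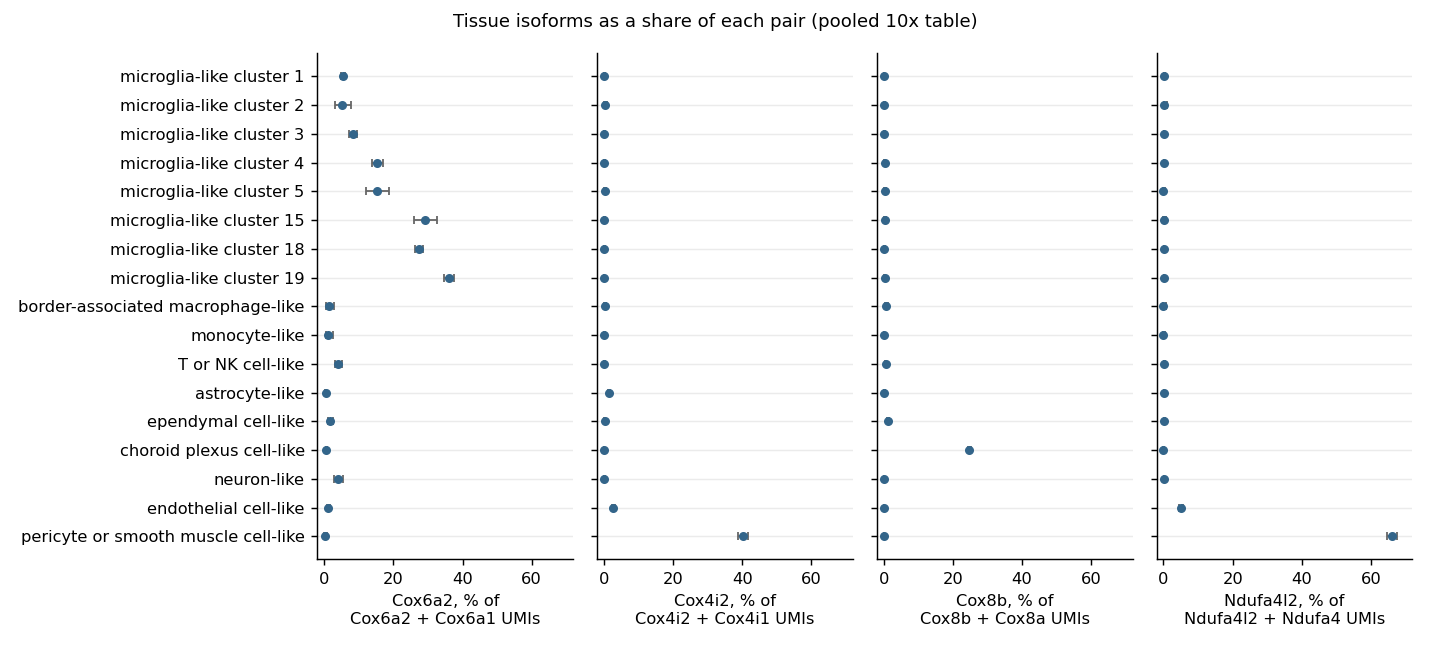
Tissue isoform as a percent of the UMIs of itself and its common partner (x axes) in microglia-like clusters and other cell classes of the pooled 10x table. Points are the pooled cells of a class and bars are exact binomial intervals; Cox6a2 goes from 5.40% in cluster 1 to 36.1% in cluster 19, while Cox4i2 and Ndufa4l2 are high in pericyte-like cells and Cox8b in choroid plexus cell-like cells.

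The c-subunit of ATP synthase is encoded by 3 genes whose mature proteins are the same. In microglia-like cells Atp5g2 led with 429 UMI CPM, followed by Atp5g1 with 166 and Atp5g3 with 94.0. Each was higher in cluster 19 than in cluster 1, by ratios of 1.52, 1.47 and 1.44. In Smart-seq2 white matter, Atp5g2 had 61.1 to 201 CPM in WT and 51.6 to 197 CPM in Trem2ko animals, and the groups overlapped. Atpif1, the inhibitor of ATP synthase, which the symbol rule leaves out, had 239 UMI CPM in microglia-like cells.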

How the data were processed

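Smart-seq2 counts and 10x counts were analysed as deposited. The authors deposited raw read counts per gene and cell (Smart-seq2) and raw UMI counts per gene and barcode (10x). Per the submitters' processing notes, the tools included Cell Ranger 4, Trim Galore, FastQC and bcl2fastq, and the build was mm10; the Smart-seq2 aligner and counter are not given in the sources used here. Unused columns of per-sample values numbered 0.

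The members, lists and comparisons were chosen with earlier results of these data known. Genes without reads in 1 column block were left out (0.147% of reads). The main results removed no cell for markers of other cells. An alternative left out 1 cell with at least 1% of reads in such markers. Reads were summed per animal and tissue (at least 5 cells) and tested with edgeR 4.0.16 quasi-likelihood tests (TMM, filterByExpr, robust), adjusted by Benjamini-Hochberg over all genes at 0.05. The SE is the log2 change over the square root of F. White and grey matter were compared in 1 fit of 22 libraries with the animal, named in the labels, as a block; the tissues of 1 animal deviated together only weakly (r = 0.0113 to 0.117). DESeq2 1.42.0 was the other tool, and both were run with the settings listed in the closing section; the edgeR scripts were tested on simulated data. Shares are percentages of gene reads, without a test. 10x cells were clustered with scanpy 1.11.5 (2000 variable genes, 30 components, resolution 1.0).

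Named genes were the most expressed members of each role, all measured tissue isoforms, the 3 smallest p-values per direction and comparison, and the c-subunit genes; not all are printed, and 1 is not reported here. No protein sequence was used here.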

Additional observations from a re-analysis of the deposited data

Results flagged for a closer look

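Samples standing apart from the rest of their group were sought in 80 groups of values (shares of the members and of each complex, and named genes), and 4 were found. About 1 in 20 such groups is expected by chance. In each, the gap to the nearest other animal took an unusually large part of the group's range. The ATP synthase share of WT grey matter was lowest in A6, at 0.146% against 0.255% in the next animal (gap over range 0.615), in a library of 7 cells. Cox6a2 in Trem2ko grey matter was highest in A12, at 14.0 against 1.43 CPM (0.909), scaled in the fit of grey matter libraries alone, where the report's tissue comparison has 14.4 and 1.39; A12 is also the Trem2ko animal with the highest Trem2 reads. Cox6a1 in WT white matter was lowest in A6, at 17.7 against 200.3 CPM (0.710). Ndufaf3 in Trem2ko white matter was highest in A8, at 152 against 47.9 CPM (0.754).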

How the results depend on the processing

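The alternatives changed the scaling, the tool, the filter on low counts, the cells, plates and animals used, and left out each animal in turn. Counting each repeated well of A5 once, and leaving out called doublets, were chosen after seeing the data. With edgeR, 0 members were called under every alternative run, including no replicate block, which also gave 0 in each tissue comparison. In simulated data of the same design edgeR recovered few changed genes, so these counts of 0 show no stability. DESeq2 called 2 members between WT tissues, 1 between Trem2ko tissues and 2 for 5xFAD. Over all genes it called 210 higher and 151 lower, 68 and 53, and 163 and 49 in these comparisons. There edgeR called 4, 0 and 0 genes, so the tools differed over all genes, and the cause was not tested. Of 758 alternative values of 36 named results, 0 reversed direction and 5 became called, all with DESeq2. These results were picked for the smallest p-values per direction and comparison in the same data, so the 0 reversals show no stability either.

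The log2 difference of the summed share moved by more than the spread between animals in some settings. With all animals whatever their cell number it was 0.21 between Trem2ko tissues and -0.44 between genotypes in grey matter, where A13 enters with few cells. With only plates that held both tissues it was 0.22 between Trem2ko tissues. For 5xFAD it was 0.29 with TMM library sizes and 0.040 as a mean of per-cell shares. Between WT tissues TMM gave 0.03, against -0.08, a change of sign that stayed within the spread between animals (SD 0.153). Leaving out single animals gave -0.10 to -0.02 for WT tissues, 0.05 to 0.10 for Trem2ko tissues, 0.09 to 0.18 for the difference of tissue effects, -0.14 to -0.07 for genotypes in white matter, -0.30 to -0.22 in grey matter and 0.11 to 0.18 for 5xFAD, with 0 members called throughout.

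The members' median relative to all genes changed sign in 5 of 22 settings for WT tissues, 3 of 24 for the difference of tissue effects and 1 of 15 for 5xFAD, and in none for the other comparisons. The 10x share of microglia-like cells was 1.37% with cells picked by marker counts and 1.32% after thinning. Depth and the spread between animals limit single genes: the biological coefficient of variation was 1.09 for tissues, 1.07 and 1.14 for genotypes in white and grey matter, and 1.33 for 5xFAD.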
